A study of Mus musculus with 6 samples.

Results

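The expression of 8 genes best known from testis, from motile cilia or as retrocopies was examined in whole mouse brains at postnatal day 14. The 8 genes are Map10, Rps4l, Gm5124, Tdrd6, Dnah1, Dnajb3, Caps2 and Magee2, matched by GENCODE M21 symbol among 54532 gene identifiers, and all 8 were among the 16731 genes with enough counts to be tested. They were chosen by their higher read counts in mutant than in control brains in these same libraries, so their difference between the groups is given below as a description with no test. RNA of 3 control and 3 mutant brains was sequenced, with 1 library per mouse on a C57BL/6J background. Controls carried 1 floxed and 1 wild-type Mphosph8 allele with the Nestin-Cre transgene (Mphosph8fl/+ Nestin-Cre+), and mutants, labelled Mphosph8∆n, carried floxed alleles on both chromosomes with the same transgene (Mphosph8fl/fl Nestin-Cre+). Nestin-Cre is a recombinase driven in neural progenitors, so cells of other origin in a whole brain keep the gene, and the controls are heterozygous wherever it acts. The paper gives the genotype of the brains sequenced as controls only by their Cre transgene, so the floxed allele is taken from the labels.

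MPP8, the product of Mphosph8, is a chromodomain protein that binds H3K9 trimethylation and belongs to the HUSH complex, which represses retroelements, retrocopies and other transcribed DNA without introns. A retrocopy arises when the spliced RNA of a parent gene is copied back into the genome, so it lacks the introns of its parent and the parent's promoter. Many retrocopies and germline genes are transcribed in the testis and silent or low in somatic tissues, and in the brain the dyneins of motile cilia are made mainly by the ependymal cells that line the ventricles.

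The copies can be read in the sequences themselves. In each pair below, 100 gapless bases of coding sequence of the relative, taken nearest to the middle of the alignment, stand under the matching stretch of the copy from the GENCODE M21 transcripts, with the bases that differ in capitals. The first pair is Rps4l, bases 409 to 508 of its transcript, over bases 449 to 548 of Rps4x, which encodes the ribosomal protein S4, with 21 differences. The next is Gm5124, bases 1002 to 1101, over bases 1043 to 1142 of Nolc1, a nucleolar phosphoprotein, with 7 differences. The last is Dnajb3, bases 355 to 454, over bases 454 to 553 of Dnajb6, a chaperone of the same DnaJ family, with 33 differences.
Rps4l: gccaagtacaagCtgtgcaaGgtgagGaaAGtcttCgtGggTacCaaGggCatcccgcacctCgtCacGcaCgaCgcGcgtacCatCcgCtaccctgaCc
Rps4x: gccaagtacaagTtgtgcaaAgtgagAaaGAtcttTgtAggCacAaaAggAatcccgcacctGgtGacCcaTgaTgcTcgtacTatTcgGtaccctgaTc
Gm5124: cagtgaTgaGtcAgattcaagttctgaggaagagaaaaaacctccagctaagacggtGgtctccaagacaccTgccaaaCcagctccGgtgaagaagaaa
Nolc1: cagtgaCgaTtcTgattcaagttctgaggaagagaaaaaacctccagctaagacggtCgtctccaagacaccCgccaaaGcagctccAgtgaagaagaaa
Dnajb3: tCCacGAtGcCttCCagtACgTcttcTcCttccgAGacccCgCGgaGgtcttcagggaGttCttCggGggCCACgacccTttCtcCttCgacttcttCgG
Dnajb6: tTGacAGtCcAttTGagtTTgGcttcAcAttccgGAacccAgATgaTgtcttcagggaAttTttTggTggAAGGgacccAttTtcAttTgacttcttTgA
Over the whole alignment Rps4l was identical to Rps4x at 79.7% of 814 columns, Gm5124 to Nolc1 at 85% of 2168 columns and Dnajb3 to Dnajb6 at 69.2% of 724 columns. The alignments ran across 6 exon junctions of Rps4x, 12 of Nolc1 and 6 of Dnajb6, and across 0 junctions of the copy in each pair. The longest identical run was 38 bases for Rps4l, 44 for Gm5124 and 19 for Dnajb3, shorter than the 50-base reads.

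Promoter sequence is given for 4 genes on 4 different chromosomes, since they were chosen for differing in the same direction. For 5 of the 8 genes the RefSeq promoter table (GRCm38.p6) held a window of 250 bases before to 50 after the start. The 150 bases upstream of the annotated start are printed 5′ to 3′ on the gene's strand, with CpG dinucleotides in capitals. They lie at chr8:125669668-125669817 (plus strand) for Map10, chr14:31323897-31324046 (minus) for Dnah1, chr1:88205783-88205932 (minus) for Dnajb3 and chrX:104857268-104857417 (minus) for Magee2.
Map10: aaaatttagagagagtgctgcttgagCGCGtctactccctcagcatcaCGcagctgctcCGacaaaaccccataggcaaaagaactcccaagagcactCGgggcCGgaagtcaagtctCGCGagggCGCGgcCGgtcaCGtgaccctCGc
Dnah1: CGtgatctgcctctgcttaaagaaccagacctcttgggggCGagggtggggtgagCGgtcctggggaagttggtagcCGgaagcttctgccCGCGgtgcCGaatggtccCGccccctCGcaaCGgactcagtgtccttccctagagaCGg
Dnajb3: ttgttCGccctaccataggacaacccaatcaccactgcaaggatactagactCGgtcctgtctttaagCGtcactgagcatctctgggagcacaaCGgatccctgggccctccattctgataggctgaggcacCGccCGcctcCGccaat
Magee2: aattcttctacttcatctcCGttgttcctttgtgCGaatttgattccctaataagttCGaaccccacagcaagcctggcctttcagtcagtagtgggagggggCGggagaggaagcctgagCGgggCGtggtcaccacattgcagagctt
These stretches hold 13, 11, 7 and 6 CpGs in that order. Over the full window, the CpG ratio (observed over expected from base composition) was 1.12 for Map10, higher than in 98.4% of 32851 promoters. It was 0.732 for Dnajb3, 0.652 for Magee2, 0.636 for Dnah1 and 0.48 for Caps2, all above the median promoter at 0.384, although the window of Caps2 begins from a start 2055 bases downstream of its GENCODE start and that of Dnajb3 from one 34 bases downstream. The stretch of Dnajb3 printed above ends at the GENCODE start. For Dnah1 the starts coincide, but the 50 bases after the start run past the end of the first exon. Short motifs were searched on both strands. CACGTG, an E-box, stood in Map10 at -14 from the start and in 7.15% of all promoters. TTCCCGC, an E2F-type motif, was in none of the 5 windows and in 4.6% of all promoters. TATAAA, the TATA box core, occurred 3 times in Map10, at -179, -157 and -153 with the last pair overlapping, and 1 time in Caps2 at -144, against 13.6% of promoters with at least 1.

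The libraries held 12956880 to 15223424 counts, with 25461 to 25743 genes detected, so that 3 counts, the least that is told from 0 here, correspond to 0.199 to 0.24 CPM (counts scaled to a common effective library size). No pair of replicates agreed within sampling noise (chi-square per degree of freedom 3.42 to 12.3), and each library was counted as 1 sample. Mphosph8 (chromosome 14) was at 55.8, 48.6 and 70.7 CPM in control and 33.1, 27.2 and 26.5 CPM in mutant brains, with no overlap. Its log2 fold change was -1.02 ± 0.12 (SE), past the test (edgeR adjusted p 0.000157), and -0.85 without control replicate 3 (edgeR adjusted p 0.000943). The counts cover the whole gene, including exons outside the deleted part. Control replicate 3 stood apart in sex-linked genes, with 1338 counts of the Y-linked Ddx3y and 27 of Xist, against 0 and 11130 to 17697 in each other library. The labels used here give no sex. Markers of brain cells were present, with Rbfox3 of neurons at 345 and 365 CPM and Mbp of myelin at 12091 and 9567 CPM in control and mutant brains.

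Among the 8 genes, 4 consist of 1 exon in every annotated transcript, namely Map10, Rps4l, Dnajb3 and Magee2, and Gm5124 has transcripts of 1 and of 2 exons. Of all tested genes, 7.6% had a single exon, but no excess is read from this. Retrocopies, which lack introns, were among the kinds of gene chosen. Of the 8, 6 are annotated as protein coding, and Rps4l and Gm5124 as transcribed processed pseudogenes. They lie on 7 chromosomes, with Gm5124 and Magee2 both on the X chromosome. A gene was called when edgeR's quasi-likelihood test gave a Benjamini-Hochberg adjusted p under 0.05 and a fold change over 2. All 8 genes met this rule, where 0.353% of all tested genes were called higher (59 of 16731), 0.00598% lower and 0.359% in either direction, and nothing is read from this count because the genes were chosen for it. In all 8 the lowest mutant library was above the highest control library, a pattern seen in 6.23% of tested genes, with the reverse in 5.42%. For 4 of them the call was lost in some fits that left out 1 library. Those fits held fewer samples, so a call could be lost without a lower log2 fold change. Over all 6 libraries it was 1.42 for Tdrd6 and 1.54 for Caps2. Map10, Rps4l, Gm5124 and Dnajb3 were called whichever of the 6 libraries was left out. Tdrd6 was not called without control replicate 1 (log2 fold change 1.20), control replicate 3 (1.44) or mutant replicate 3 (1.40). Dnah1 was not called without control replicate 1 (0.85) or mutant replicate 3 (0.93). For Caps2 the call was lost without control replicate 1 (1.38), control replicate 2 (1.63), control replicate 3 (1.63), mutant replicate 2 (1.41) or mutant replicate 3 (1.43). For Magee2 it was lost without control replicate 2 (0.99), control replicate 3 (0.87), mutant replicate 1 (0.94) or mutant replicate 2 (0.93). In bulk tissue, more cells with a transcript and more RNA per cell cannot be told apart.

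**Figure D1:**
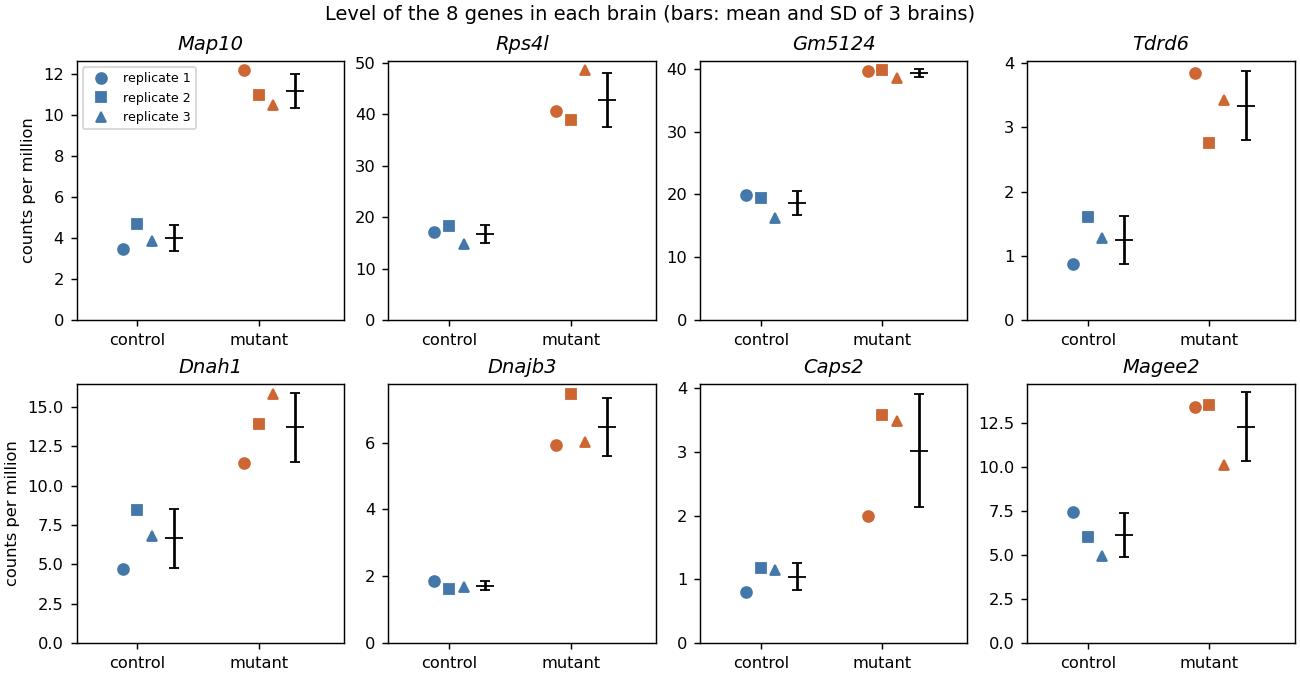
Level of each of the 8 genes (CPM, linear axes from 0) in the 3 control and 3 mutant brains, one marker shape per replicate number, with the mean and SD of 3 brains beside them. In every panel the 3 mutant brains lie above the 3 control brains, by a ratio of the lowest mutant to the highest control value that runs from 1.36 for Dnah1 and Magee2 to 3.18 for Dnajb3.

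The retrocopies were examined first. Rps4l (ENSMUSG00000063171, chromosome 6, 148354656 to 148355598, plus strand, GRCm38) is a copy of a ribosomal protein gene and lies inside Tmtc1, which runs on the opposite strand, without touching its exons. It was at 17.1, 18.2 and 14.8 CPM in control and 40.6, 39.0 and 48.7 CPM in mutant brains, or 16.7 ± 1.76 against 42.8 ± 5.19 CPM (SD, n = 3). The log2 fold change was 1.36 ± 0.11 (SE). The highest mutant value, in replicate 3, was 0.19 above its group mean on the log2 scale, and every mutant brain was at least 2.14 times the highest control brain. Of the 50-base words of its transcript, 14.9% also occur in the pseudogene Rps4l-ps, which had 1 count in all 6 libraries together. The parent-like gene Rps4x, with 7 exons on chromosome X, was at 43.7, 36.8 and 38.5 CPM in control and 44.8, 37.8 and 35.4 CPM in mutant brains. These values overlapped, and Rps4x did not pass the test (-0.01 ± 0.10 on the log2 scale, edgeR adjusted p 0.996), although 41.2% of its own words occur in 11 other genes, so its counts are uncertain. Per kilobase of exon, Rps4l as counted stood at 66.3% to 85.8% of Rps4x in the control brains and at 157% to 238% in the mutant brains. If reads that match several places were dropped, Rps4x would lose a larger share than Rps4l. Which of the 2 genes was higher is therefore uncertain.

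Gm5124 (ENSMUSG00000051537, chromosome X, 21360865 to 21364622, plus strand) is the Nolc1-like copy shown above. It was at 19.9, 19.4 and 16.3 CPM in control and 39.7, 39.8 and 38.6 CPM in mutant brains, or 18.6 ± 1.95 against 39.4 ± 0.648 CPM (SD, n = 3). The log2 fold change was 1.08 ± 0.10 (SE). The 3 mutant brains were nearly equal, and the lowest control value was that of replicate 3, the library with Y-linked counts and 27 counts of Xist. Without that library the log2 fold change was 1.00. Nolc1, on chromosome 19 with 13 exons, was at 47.9, 43.9 and 42.3 CPM in control and 39.2, 44.1 and 43.5 CPM in mutant brains, which overlapped (-0.08 ± 0.09, edgeR adjusted p 0.95). With genes that overlap the one searched left out, none of the 50-base words of either gene occurs in another annotated gene. Per kilobase of exon, Gm5124 was at 55.9% to 64.0% of Nolc1 in control and at 129% to 147% in mutant brains. Of its 2742 exonic bases, 1970 lie opposite exons of the long noncoding RNA Gm26593, and since no source used here gives the strand setting of the counting, reads of the pair cannot be told apart in those bases.

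Dnajb3 (ENSMUSG00000081984, chromosome 1, 88204732 to 88205782, minus strand) encodes a cochaperone of Hsp70 best known from spermatids and had the highest ratio of the 8. It was at 1.86, 1.61 and 1.69 CPM in control and 5.92, 7.46 and 6.03 CPM in mutant brains, or 1.72 ± 0.128 against 6.47 ± 0.862 CPM (SD, n = 3), from 75 and 257 counts. The log2 fold change was 1.90 ± 0.21 (SE). The control brains lay close together, and the lowest mutant brain was 3.18 times the highest control brain. The gene lies within the Ugt1a genes, which encode glucuronosyltransferases and run on the opposite strand, and none of its exonic bases faces one of their exons. Of these only Ugt1a7c was tested, with 38 counts summed over control and 34 over mutant brains (-0.03 ± 0.38, edgeR adjusted p 0.997). Dnajb6, with introns and on chromosome 5, was at 13.6, 12.8 and 11.5 CPM in control and 9.60, 12.5 and 12.9 CPM in mutant brains, which overlapped (-0.11 ± 0.14, edgeR adjusted p 0.958). Of its words, 17.7% occur in 80 other genes, so its counts are uncertain too. Per kilobase of exon, Dnajb3 stood at 72.5% to 84.3% of Dnajb6 in control brains and at 270% to 356% in mutant brains.

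**Figure D2:**
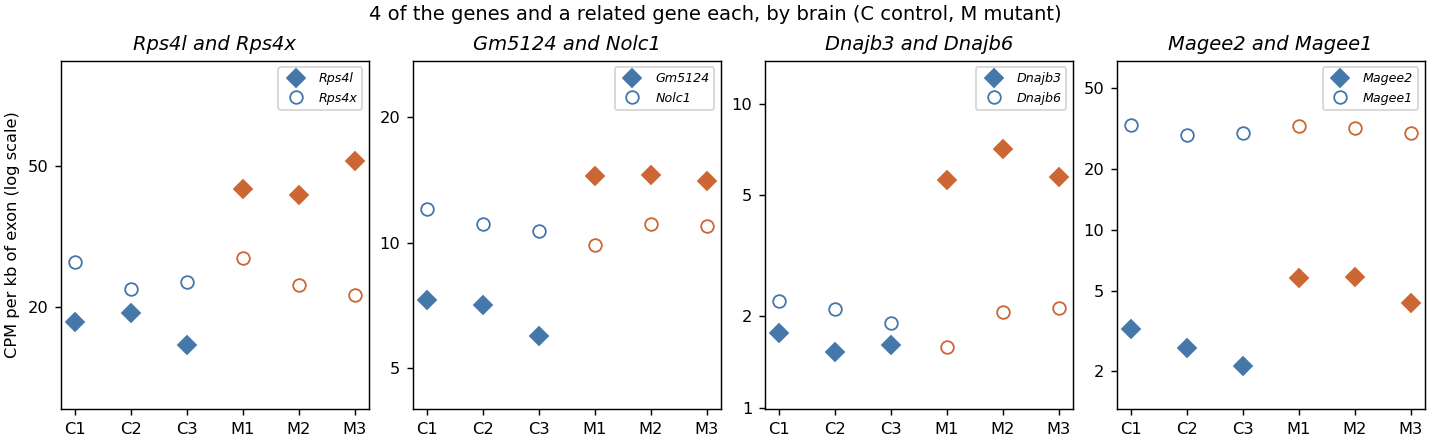
Level per kilobase of exon (CPM per kb, log scale) of Rps4l, Gm5124, Dnajb3 and Magee2 (filled diamonds) and of a related gene (open circles) in control brains C1 to C3 (blue) and mutant brains M1 to M3 (orange). As counted, Rps4l, Gm5124 and Dnajb3 lie below their relative in the 3 control brains and above it in the 3 mutant brains. Magee2 stays below Magee1 in all 6. Part of the words of Rps4x and Dnajb6 occur in other genes, so their levels may be counted too low.

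Magee2 (ENSMUSG00000031224, chromosome X, 104854952 to 104857267, minus strand) is a single-exon member of the melanoma antigen family, which binds ubiquitin ligases. It was at 7.45, 6.01 and 4.93 CPM in control and 13.4, 13.5 and 10.1 CPM in mutant brains, or 6.13 ± 1.26 against 12.3 ± 1.94 CPM (SD, n = 3). The log2 fold change was 1.01 ± 0.17 (SE). Its values were lowest in replicate 3 of both groups, and it lay just inside the fold limit of 2. Without control replicate 3, the same library, the log2 fold change was 0.87. Magee1, also with a single exon and 263111 bases away, was at 117, 104 and 106 CPM in control and 116, 113 and 106 CPM in mutant brains. The groups overlapped (0.04 ± 0.08, edgeR adjusted p 0.984). Per kilobase, Magee2 rested at 7.13% to 9.78% of Magee1 in control and 14.6% to 18.3% in mutant brains. The transcripts align over only 187 columns, at 71.7% identity with a longest identical run of 12 bases, and 0.176% of the words of Magee2 occur elsewhere, in Clasp1.

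Map10 (ENSMUSG00000050930, chromosome 8, 125669818 to 125673359, plus strand) encodes a microtubule-associated protein of the mitotic spindle in 1 exon of 3542 bases. It was at 3.46, 4.69 and 3.85 CPM in control and 12.2, 11 and 10.5 CPM in mutant brains, or 4 ± 0.628 against 11.2 ± 0.834 CPM (SD, n = 3). Its fold change was 1.49 ± 0.16 (SE) on the log2 scale, and the lowest mutant brain was 2.25 times the highest control brain. No other GENCODE transcript aligned to it, and none of its words occurs elsewhere. Of 14 other microtubule-associated protein genes tested, edgeR called 0 in either direction and 0 at an unadjusted p under 0.05, with log2 fold changes from -0.12 to 0.17 and a median of 0.04. Over all 16731 tested genes, 685 were higher and 404 lower at that unadjusted limit, the background for such counts in the lists below. Map2, of dendrites, had the smallest adjusted p, at 1124 ± 60.4 and 1266 ± 16.7 CPM (0.17 ± 0.09, edgeR adjusted p 0.838), and Map1a, of axons and dendrites, the highest level, 1204 ± 22.3 and 1304 ± 116 CPM.

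Tdrd6 (ENSMUSG00000040140, chromosome 17, 43615335 to 43630299, minus strand, 3 to 6 exons) encodes a Tudor domain protein of the chromatoid body, the RNA granule of spermatids. It had the lowest level per kilobase of the 8, at percentile 1.19 of all tested genes in control brains. Its values were 0.864, 1.61 and 1.28 CPM in control and 3.84, 2.76 and 3.42 CPM in mutant brains, or 1.25 ± 0.374 against 3.34 ± 0.542 CPM (SD, n = 3), from 54 and 132 counts in all. The log2 fold change was 1.42 ± 0.27 (SE). Control replicate 1, with 13 counts, was the low library of its group. Genes of the Tudor family and the piRNA pathway, which silences transposons in germ cells, were set beside it. Of 17 listed 10 were tested, and edgeR called 0 in either direction and 0 at an unadjusted p under 0.05, with a median log2 fold change of 0.01. Piwil2, a slicer of the piRNA pathway, had the smallest adjusted p, at 1.06 ± 0.179 and 1.52 ± 0.634 CPM (0.53 ± 0.34, edgeR adjusted p 0.897). Snd1, a Tudor domain coactivator made in most tissues, had the highest level, 118 and 115 CPM. Tdrd1, named after its values were seen, had 22 counts in control and 8 in mutant brains in all and was not tested.

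Dnah1 and Caps2 are the members with many exons. Dnah1 (ENSMUSG00000019027, chromosome 14, 31260375 to 31323896, minus strand, up to 78 exons) encodes an inner arm dynein heavy chain of motile cilia and sperm tails. It was at 4.72, 8.42 and 6.82 CPM in control and 11.4, 13.9 and 15.8 CPM in mutant brains, or 6.65 ± 1.86 against 13.7 ± 2.18 CPM (SD, n = 3). On the log2 scale the fold change was 1.05 ± 0.18 (SE). The lowest mutant brain was 1.36 times the highest control brain, and replicate 1 was the lowest of both groups. Dnah1 lies 25344352 bases from Mphosph8 on the same chromosome, of which the mutants carry 2 floxed copies and the controls 1, so an effect of DNA linked to the floxed allele and an effect of losing the gene cannot be told apart here. Of its exonic bases, 551 lie opposite exons of the antisense RNA Gm35823, at 0.536 ± 0.268 and 0.938 ± 0.159 CPM (0.81 ± 0.42, edgeR adjusted p 0.806).

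The other dynein heavy chains, of cilia and cytoplasm, were set beside Dnah1. Of 16 listed and tested, edgeR called 0 in either direction, 1 was higher and 0 lower at an unadjusted p under 0.05, and the median log2 fold change was -0.02, beside -0.01 over all tested genes. Dnah7a, an inner arm chain, had the smallest adjusted p, at 1.05 ± 0.128 and 1.85 ± 0.636 CPM (0.81 ± 0.32, edgeR adjusted p 0.57). Dync1h1, the chain of cytoplasmic dynein, had the highest level, 441 and 432 CPM. Dnah3, whose transcript is the closest to Dnah1 (69.5% identity over 972 columns), was at 1.69 ± 0.396 and 1.51 ± 0.297 CPM, which overlapped (-0.15 ± 0.29, edgeR adjusted p 0.981).

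Caps2 (ENSMUSG00000035694, chromosome 10, 112163621 to 112216555, plus strand, 17 to 18 exons) encodes calcyphosine 2, an EF-hand calcium-binding protein. It was at 0.798, 1.17 and 1.15 CPM in control and 2.00, 3.58 and 3.49 CPM in mutant brains, or 1.04 ± 0.209 against 3.02 ± 0.889 CPM (SD, n = 3), from 45 and 121 counts in all. This gave a log2 fold change of 1.54 ± 0.30 (SE), the least precise of the 8. Mutant replicate 1, with 25 counts against 48 in each other mutant, was the low library of its group. Of its words, 19.2% occur in 94 other genes, so its counts are uncertain. The gene with the largest share, 9.04%, is the pseudogene Gm7269, which had 0 counts in every library.

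Since ependymal cells and choroid plexus hold cilia genes in the brain, their markers were set beside Dnah1 and Caps2. Of 25 ependymal cilia markers, all tested, edgeR called 0 in either direction, 2 were higher and 0 lower at an unadjusted p under 0.05, and the median log2 fold change was 0.04. Their summed level was 141 to 157 CPM in control and 150 to 169 CPM in mutant brains, and no marker was at 0 in every library. Dnaic2, a dynein intermediate chain, had the smallest adjusted p, at 4.01 ± 0.271 and 5.78 ± 0.381 CPM (0.53 ± 0.17, edgeR adjusted p 0.352). Ccdc39, which sets the spacing of inner dynein arms, had the highest level, 29.2 ± 3.49 and 30.6 ± 6.15 CPM. Of 12 choroid plexus markers, all tested, 10 had a negative and 2 a positive log2 fold change, edgeR called 0, 0 were higher and 1 lower at an unadjusted p under 0.05, the median was -0.25, and the summed level was 1498 to 1791 CPM in control and 1110 to 1324 CPM in mutant brains, without overlap. Ttr, the thyroxine carrier that the choroid plexus secretes, makes up most of that sum and was at 1498 ± 153 and 1100 ± 102 CPM (-0.45 ± 0.11, edgeR adjusted p 0.0764). Among 11 markers of neurons and glia, Mog of oligodendrocytes was lower at -0.49 ± 0.10 (edgeR adjusted p 0.0351), below the fold limit. The part of these shifts in the levels of the 8 genes was not tested.

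Genes of testis as such were next. Of 20 germ cell genes 6 were tested and 7 had 0 counts in every library, among them the protamine and transition protein genes Prm2, Tnp1 and Tnp2. EdgeR called 0 in either direction and 0 at an unadjusted p under 0.05. The median log2 fold change of the 6 was 0.29, beside -0.01 over all tested genes, with 5 positive and 1 negative. The summed level of the list was 10.6 to 13.8 CPM in control and 12.3 to 14.9 CPM in mutant brains, which overlapped. Dazl, an RNA-binding protein of germ cells, had the smallest adjusted p, at 1.40 ± 0.078 and 1.81 ± 0.387 CPM (0.37 ± 0.28, edgeR adjusted p 0.916). It was the only gene of the 6 with all mutant above all control values. Tex15, which takes part in meiosis, had the highest level, 3.21 ± 0.671 and 3.98 ± 1.16 CPM. Of 20 retrogenes known from testis 19 were matched, 8 had 0 counts in every library, and only 2 were tested. EdgeR called neither, at an unadjusted p under 0.05 either, with Cstf2t, a testis paralogue of a polyadenylation factor, at 78.4 ± 3.05 and 77.8 ± 7.02 CPM and Utp14b, of the small subunit processome, at 31.5 ± 5.28 and 31.1 ± 1.42 CPM. For the genes with 0 counts in every library, counting error alone could hide a level under that of 3 counts, 0.199 to 0.24 CPM. Reads that match several places may have been dropped, which could hide a higher level, since the multimapping setting is not stated. The genes below the filter were not tested for smaller changes.

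The families of Rps4l and Dnajb3 were counted in the same way. Of 32 small ribosomal subunit protein genes, all tested, edgeR called 0 in either direction, 1 was higher and 0 lower at an unadjusted p under 0.05, the range was -0.32 to 0.33 and the median -0.00. Counted levels in the family ran from 0.939 ± 0.137 CPM for Rps29 to 409 ± 48.6 CPM for Rps3 in control brains, both named after their values were seen. Reads that match several places may have been dropped, and shared words were searched only for Rps4x in this list. A low count here therefore need not mean a low level, and a change could be missed. Of 12 DnaJ B chaperone genes 10 were tested, 0 were called in either direction, 0 had an unadjusted p under 0.05, and the median was -0.07. Dnajb1, a heat-shock cochaperone, had the smallest adjusted p, at 29.5 ± 3.99 and 25.4 ± 1.05 CPM (-0.21 ± 0.11, edgeR adjusted p 0.802), and Dnajb14, of the endoplasmic reticulum membrane, the highest level, 133 ± 7.53 and 141 ± 13.6 CPM. Of 8 paralogues listed for the genes, 6 were tested and 0 called in either direction, with 0 at an unadjusted p under 0.05. DESeq2 and limma-voom also called 0 genes in every one of these lists except the markers of neurons and glia, which were examined with edgeR only.

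**Figure D3:**
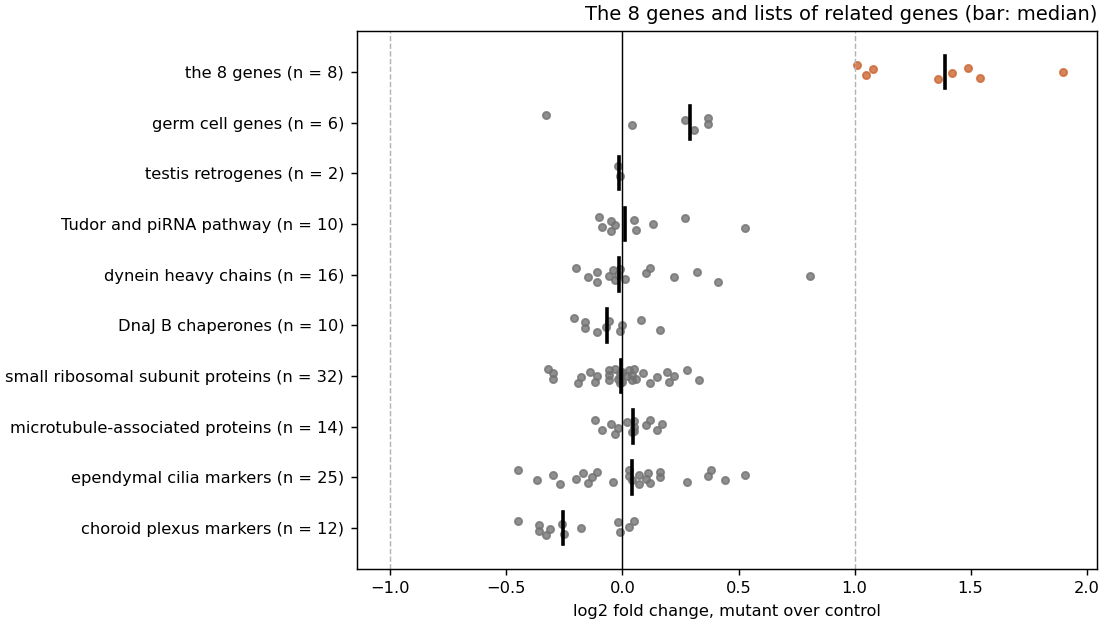
Log2 fold change, mutant over control, of the 8 genes (orange) and of the tested genes in lists of related genes (grey), with the median of each as a black bar and dashed lines at a fold of 2. The 8 genes were chosen for high values and lie at 1.01 or more, and the listed genes lie between -0.45, for Ttr among others, and 0.81, for Dnah7a.

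The genes beside the 8 were examined next, to see whether a difference extended along the chromosome. Only tested genes were used, so the distances ran from 0 to 2182268 bases. The nearest to Magee2 lay 179930 and 183888 bases away, so a difference over a shorter range could not be seen there. Of the 48 nearest tested genes, 3 on each side, edgeR, DESeq2 and limma-voom each called 0. In edgeR, 3 of the 48 were higher and 0 lower at an unadjusted p under 0.05, beside 685 higher and 404 lower of the 16731 tested genes. The median log2 fold change was 0.02. All mutant values lay above all control values in 6 of the 48, and below them in 1. Over all tested genes this held for 6.23% (1042 of 16731) and 5.42% (906). The share among the neighbours was thus higher than over all genes for the first pattern and lower for the second.

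The largest value beside a retrocopy was that of Gm26593, the long noncoding RNA opposite Gm5124. It was at 0.731, 0.659 and 0.202 CPM in control and 1.6, 1.64 and 1.31 CPM in mutant brains, with no overlap and a log2 fold change of 1.50 ± 0.39 (SE), and did not pass the test (edgeR adjusted p 0.135, from 23 and 60 counts). Without a filter on low counts it was called (edgeR adjusted p 0.0172), and without control replicate 3 it stood at 1.11 (edgeR adjusted p 0.507). The other side of Gm5124 begins with Zfp300, a zinc-finger gene 271338 bases away, at 2.40 ± 0.269 and 3.49 ± 0.547 CPM (0.53 ± 0.22, edgeR adjusted p 0.649). Disc1, near Map10 and named after its values were seen, was at 2.13 ± 0.586 and 3.18 ± 0.117 CPM (0.58 ± 0.24, edgeR adjusted p 0.657). These 3 are the neighbours past an unadjusted p of 0.05.

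The nearest neighbours of the other genes were not called either. Tmtc1, the host of Rps4l, was at 67.5 ± 4.82 and 69.2 ± 5 CPM (0.04 ± 0.09, edgeR adjusted p 0.985), and Gm44021, on the other side, at 0.875 ± 0.0717 and 1.15 ± 0.859 CPM (0.38 ± 0.47, edgeR adjusted p 0.96). Bap1, a deubiquitinase whose gene ends 431 bases from Dnah1, was at 130 ± 4.96 and 134 ± 3.50 CPM (0.05 ± 0.08, edgeR adjusted p 0.975). Pla2g7 and Slc25a27 beside Tdrd6 had log2 fold changes of 0.06 and -0.04, Sipa1l2 and Ntpcr beside Map10 of 0.04 and -0.00, and Glipr1 and Kcnc2 beside Caps2 of 0.13 and -0.01, all with an edgeR adjusted p of 0.959 or more. Hjurp, beside Dnajb3, was at -0.09 (edgeR adjusted p 0.956). Zdhhc15 and 5530601H04Rik beside Magee2 were at 0.13 and 0.10, with an edgeR adjusted p of 0.941 and 0.95.

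**Figure D4:**
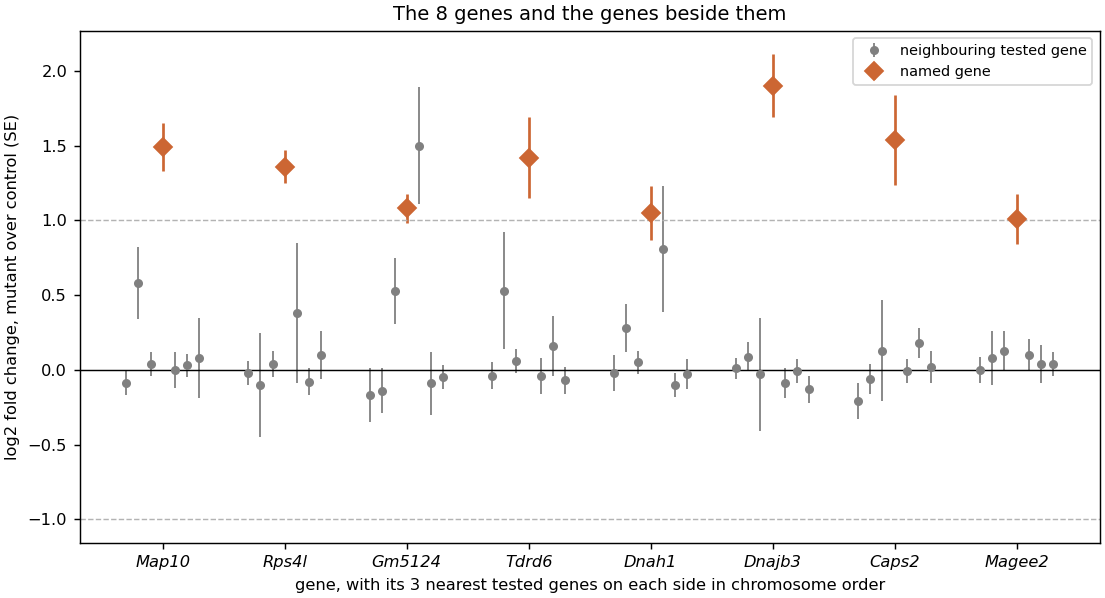
Log2 fold change, mutant over control, with its standard error, of the 8 genes (orange diamonds) and of the 3 nearest tested genes on each side (grey points, in chromosome order), with dashed lines at a fold of 2. The neighbours lie between -0.21 and 1.50, the highest being Gm26593 on the strand opposite Gm5124.

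The 8 genes were compared with each other in level. Per kilobase of exon the control brains gave 17.7 ± 1.87 CPM for Rps4l, 6.77 ± 0.711 for Gm5124, 2.65 ± 0.546 for Magee2, 1.64 ± 0.122 for Dnajb3, 1.13 ± 0.177 for Map10, 0.510 ± 0.142 for Dnah1, 0.304 ± 0.0611 for Caps2 and 0.177 ± 0.053 for Tdrd6 (SD, n = 3). In this order no gene overlapped the next. In mutant brains the order was the same except that Dnajb3, at 6.16 ± 0.820 CPM per kilobase, came before Magee2, at 5.33 ± 0.839, and these overlapped, as did Dnah1 and Caps2. The control levels per kilobase ranged from percentile 1.19 of the tested genes for Tdrd6 to percentile 83.3 for Rps4l. None of the 8 was at 0 in any library, and the lowest count was 12, of Caps2 in control replicate 1.

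Summed over the 8 genes, the level was 56.2, 61.2 and 50.8 CPM in control and 129, 131 and 137 CPM in mutant brains, or 56.1 ± 5.17 against 132 ± 3.96 CPM (SD, n = 3), a ratio of 2.36. Without Rps4l, the member with the most counts over the 6 libraries, the ratio was 2.27. The spread within a group was not shared by the 8 genes. Control replicate 1 was low for Tdrd6, Dnah1 and Caps2, by -0.43, -0.44 and -0.31 from the control mean on the log2 scale, and high for Magee2, by 0.30. Mutant replicate 1 was low for Caps2 and Dnah1, at -0.52 and -0.25, and mutant replicate 3 was low for Magee2, at -0.27, and high for Rps4l and Dnah1, at 0.19 and 0.21.

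Among all other tested genes, the 5 with the most similar pattern were found by Pearson's r over the 6 libraries with the mean of the standardized log2 CPM of the 8 genes. They were Pcdhb6 (r = 0.997), 4933412O06Rik (0.994), 3222401L13Rik (0.990), Hddc2 (0.989) and Pcdhb14 (0.988). The 6 points fall into the 2 groups, so r mainly ranks genes by how cleanly the groups separate, and it is given as a description. Pcdhb6 and Pcdhb14, clustered beta protocadherins, were at 3.35 and 10.8 CPM in control and at 21.8 and 34.7 CPM in mutant brains. The noncoding RNA 3222401L13Rik was at 1.75 and 25.0 CPM, the noncoding RNA 4933412O06Rik at 1.22 and 2.11 CPM and Hddc2, an HD domain phosphatase, at 14.6 and 19.5 CPM. For the 8 genes themselves, r with the mean of the other 7 ran from 0.872 for Magee2 to 0.988 for Map10.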

How the data were processed

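PolyA-selected RNA was sequenced by the authors as single 50-base reads. They trimmed the reads, filtered out ribosomal, mitochondrial, phiX and adapter sequence with Bowtie2, aligned with STAR to GRCm38 and ran featureCounts. The files deposited hold raw, unnormalised counts for each Ensembl gene and library. Strand and multimapping settings are not stated in the sources read.

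The 8 genes and all lists were chosen with earlier results of these data known. Of 54532 identifiers, 54495 matched GENCODE M21, which supplied symbols and transcripts. edgeR 4.0.16 (R 4.3.3) fitted genotype to all 6 libraries by quasi-likelihood after filterByExpr and TMM, and adjusted p-values are over the 16731 genes tested. CPM use the effective library size, and floors cover counting error only. As alternatives, RLE size factors, DESeq2 1.42.0, limma-voom (limma 3.58.1), other filters, no fold limit, a replicate block and each library left out were tried. Steps were tested on simulated data.

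Named genes were Mphosph8, the 8 genes, a related gene each and their nearest tested neighbours, the gene with the smallest adjusted p and the highest level of each list, and the 5 most similar in pattern. Related genes were the best transcript match (blastn, E-value limit 1e-05), with Rps4x, second after Rps4l-ps, and the family member Magee1 added. Shared words were from annotated transcripts only. Genes overlapping the one searched were left out of both searches. Of 20 testis retrogenes and 8 paralogues listed, 1 each was not matched.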

Additional observations from a re-analysis of the deposited data

How the results depend on the processing

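Over all genes, 60 were called, against 96 without a filter on low counts and 105 without a fold limit, and fits without 1 library called between 47 and 67. Of the 8 genes, 8 were called under every alternative on all 6 libraries and between 5 and 7 when 1 library was left out, where fewer samples were fitted. No neighbour was called except 1, Gm26593, without a filter, where more genes and lower counts were tested. In the lists other than the markers of neurons and glia, which were examined with no alternative, 0 genes were called under each alternative. Among those markers Mog passes edgeR's test when no fold limit is set (edgeR adjusted p 0.0351). Log2 fold changes of the 8 genes kept their sign throughout, lowest for Dnah1 at 0.85 and highest for Dnajb3 at 1.97. The labels number the replicates 1 to 3 in both groups. The paper describes the control and mutant mice as littermates, but does not say whether a shared number marks a litter. Deviations of libraries with one number correlated by 0.1, -0.05 and 0.08. These values cannot decide whether the numbers mark pairs, since littermates need not deviate alike. Fitting the replicate number as a block gave 62 called genes, which include the 8, and 0 called neighbours. Depth limits Caps2 and Tdrd6 most, with 45 and 54 counts over the 3 controls.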
